A study of Mus musculus with 11 samples.

Results

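The 10 genes described here are the endothelial identity genes Kdr, Flt1, Tek, Tie1, Pecam1, Cdh5, Esam, Emcn, Plvap and Vwf. They were taken by symbol from the 54232 genes of the count table, and all 10 were among the 16536 genes with enough counts to be tested. Endothelial cells line blood vessels and need vascular endothelial growth factor (VEGF) and angiopoietin signals to sprout and to stay quiescent. They hold together through homophilic junction proteins, present a sialomucin coat to the blood, and store von Willebrand factor for release at sites of injury. In pancreatic ductal adenocarcinoma, vessels are sparse and lie within a dense stroma, so that their transcripts are a small share of a piece of tumor.

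RNA was sequenced in bulk from 11 orthotopic pancreatic tumors of C57BL/6 mice, 6 from PKN2 KO hosts (labelled A to F) and 5 from PKN2 WT hosts (A to E). According to the methods of the study, every sequenced tumor came from a female host, adult and age-matched, that was heterozygous for Rosa26 CreERT2 and had received tamoxifen, and the KO hosts carried Pkn2 fl/fl alleles where the WT hosts carried Pkn2 +/+. Each host received 1000 WTPKN2 TB32048 cells, a carcinoma line from a female KPC mouse with intact Pkn2, in DMEM and Matrigel into the pancreas. The Rosa26 locus is active in most cell types, so the deletion was not limited to endothelial cells or to any other single host cell type, and the carcinoma cells of both groups came from 1 line. Each tumor was treated as 1 replicate, and p-values set the group difference against the spread between these tumors. The fits used 1 spread per gene for both groups, although WT tumors spread more widely than KO tumors for most genes. A piece of tumor with fewer endothelial cells cannot be told apart from a piece with less RNA per endothelial cell.

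Total counts ranged from 16294128 to 31121422 per tumor, and 3 counts, taken as the smallest visible level, corresponded to 0.0887 to 0.250 CPM, counts scaled to a common library size. Pkn2 itself was 96.6 ± 9.34 CPM (SD, n = 6) in KO and 96.7 ± 34.6 CPM (SD, n = 5) in WT tumors, in bulk RNA that includes the implanted cells. It was 80.1 to 108 CPM in KO tumors and 69.2, 62.9, 84.4, 138 and 129 CPM in WT A to E, so that WT A and B lay below every KO tumor, WT D and E above every one, and the deletion was not visible in the group means. WT tumors stood apart from each other in library composition. Counts of ribosomal RNA genes took 1.31%, 6.39% and 1.40% of WT A, B and C, 0.765% of WT D, 0.241% of WT E and 0.308% to 0.739% of the KO tumors. The Spearman correlation, across genes, of a gene's deviation from its mean with its exon length was -0.50, -0.45 and -0.17 in WT A, B and C, 0.27 in WT D, 0.37 in WT E and 0.10 to 0.32 in KO tumors. Markers of normal exocrine pancreas (6 acinar genes) summed to 1624 CPM in WT E, 564 in KO E, 157 in WT A and 11.5 or less in the other tumors.

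All 10 genes were read well above the smallest visible level, with 42 to 3760 raw counts in a tumor. On the scale of CPM per kilobase of exon, the mean level over the 11 tumors was highest for Plvap at 44.4 ± 15.1 (SD). Pecam1 at 10.5, Cdh5 at 9.89 and Esam at 8.91 came next, and neighbors among these differed by less than the SD between tumors. The next group held Tie1 at 5.03, Emcn at 4.01, Flt1 at 3.13 and Kdr at 2.66, where each step was again smaller than that SD. Vwf at 1.15 and Tek at 1.04 were lowest and also lay within their spread. The steps from Plvap to Pecam1, from Esam to Tie1 and from Kdr to Vwf were larger than the SD of either neighbor.

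Endothelial genes are classically driven by ETS factors such as ERG and FLI1, which recognize a GGAA core, and 5 of the 10 genes had a promoter window in the RefSeq table (GRCm38.p6): Kdr, Flt1, Tek, Tie1 and Emcn. The stretch directly upstream of the annotated start is printed for Flt1 and Tie1, which varied with the other members across tumors, and for Tek and Emcn, which did not. Kdr, which also varied with the others, had 1 GGAA in its stretch and is not printed. The Tie1 stretch is 38 bases long and the others 120, so their numbers of sites are not comparable. GGAA on either strand (read as TTCC on the other) is in capitals. The positions are chr5:147726012-147726131 (minus strand) for Flt1, chr4:118490062-118490099 (minus) for Tie1, chr4:94739169-94739288 (plus) for Tek and chr3:137340947-137341066 (plus) for Emcn.
Flt1: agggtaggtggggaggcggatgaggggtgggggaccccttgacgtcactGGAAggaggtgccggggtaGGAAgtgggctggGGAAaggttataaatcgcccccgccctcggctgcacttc
Tie1: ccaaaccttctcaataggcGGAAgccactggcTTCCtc
Tek: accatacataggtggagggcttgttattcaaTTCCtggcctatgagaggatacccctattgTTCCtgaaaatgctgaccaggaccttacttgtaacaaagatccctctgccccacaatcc
Emcn: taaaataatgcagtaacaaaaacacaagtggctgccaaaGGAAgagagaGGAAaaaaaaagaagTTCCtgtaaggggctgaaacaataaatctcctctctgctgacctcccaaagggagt
In the full windows of 300 bases, GGAA occurred 9 times for Tie1, 6 for Emcn, 5 for Kdr, 4 for Flt1 and 2 for Tek, and at least 1 match was present in 96% of 32851 promoter windows of this length. The longer form AGGAAG, which contains GGAA, occurred 2 times each for Flt1, Tie1 and Emcn and was not found for Kdr or Tek, against a share of 35.4% of all windows on either strand. CGGAAG was found 1 time, for Tie1, against 16.9% of all windows. Pecam1, Cdh5, Esam, Plvap and Vwf had no window in the table.

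Across the 10 genes, 9 had a higher mean level in KO than in WT tumors and Emcn had a lower one, but no member passed the test. The median log2 fold change (KO over WT) of the members was 0.31, against -0.03 over all tested genes, of which 48% were higher in KO. With edgeR's quasi-likelihood test and Benjamini-Hochberg adjustment, 0 of 10 members were called, and 0.0181% of all tested genes were. At an unadjusted p under 0.05 the count was again 0 of 10, against 24% of all tested genes. DESeq2 also called 0 members, against 5.06% of the 29531 genes to which it gave a p. It put 1 (Vwf, higher) at an unadjusted p under 0.05, against 16.5% in either direction and 6.27% higher. Those genes include ones that edgeR's expression filter removed, so these shares are over a wider set than the members came from. KO and WT tumors overlapped for all 10 members, and 3.6% of all tested genes had groups that did not overlap. For Kdr, Flt1, Tek, Tie1, Cdh5, Esam and Plvap, both the lowest and the highest level were in WT tumors. Pecam1 was highest in KO F, Vwf was highest in KO C, and Emcn was lowest in KO F.

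**Figure D1:**
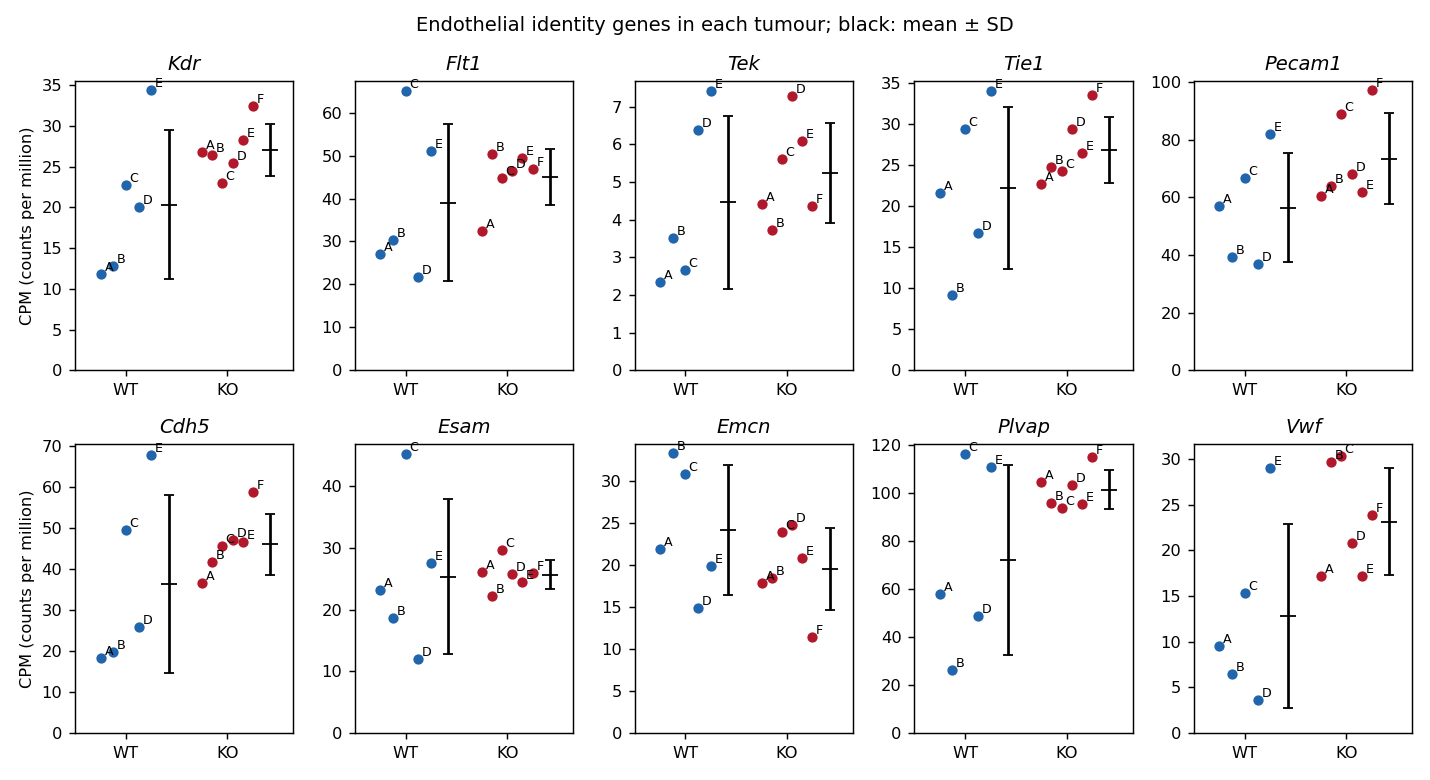
Level of each of the 10 genes (vertical axes, CPM, starting at 0) in the 5 WT (blue) and 6 KO (red) tumors, each point 1 tumor named by its letter, with the mean and SD of each group in black. KO tumors formed a narrow band for most genes, for example 94.1 to 115 CPM for Plvap, while WT tumors spread from below to above that band.

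Among the receptors, Kdr (VEGFR2; ENSMUSG00000062960, chr5:75932827-75978458 on GRCm38, minus strand) carries most of the growth signal of VEGF. It ranged from 23.0 to 32.5 CPM in KO tumors, with a median of 26.6, and was 11.8, 12.8, 22.8, 20.01 and 34.4 CPM in WT A to E. WT A to D lay below every KO tumor and WT E above every one. Its log2 difference, KO over WT, was 0.41 ± 0.25 (SE), with a 95% interval from -0.14 to 0.96 (adjusted p = 0.332 in edgeR). Leaving out WT A, B and C took it to -0.0016.

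Flt1 (VEGFR1; ENSMUSG00000029648, chr5:147561604-147726011, minus) binds VEGF tightly and serves largely as a decoy. Its KO levels were 32.5 to 50.4 CPM with a median of 46.6, and its WT levels in A to E were 27.1, 30.3, 65.2, 21.7 and 51.0 CPM. WT C and E exceeded every KO tumor, and the other WT tumors were below every one. A log2 difference of 0.21 ± 0.26 (SE; 95% interval -0.36 to 0.78, adjusted p = 0.654 in edgeR) became -0.10 with a gene length offset. The ratio of Flt1 to Kdr on the CPM per kilobase scale was 1.54, 1.59 and 1.91 in WT A, B and C, 0.724 and 0.992 in WT D and E, and 0.810 to 1.31 in KO tumors. WT A, B and C, the tumors with negative length correlations, thus had the highest ratios of Flt1 to Kdr. These are counts per gene and do not separate transcript forms. Exon length was 13.5 kb for Flt1 and 9.03 kb for Kdr. With the gene length offset the log2 difference, KO over WT, was -0.10 for Flt1 and 0.24 for Kdr. The part of library composition in the ratio of Flt1 to Kdr was not tested.

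Tek (TIE2; ENSMUSG00000006386, chr4:94739289-94874976, plus), the receptor of the angiopoietins, was the member with the fewest counts. It was 3.72 to 7.28 CPM in KO tumors, with a median of 5.01, and 2.34, 3.50, 2.65, 6.38 and 7.42 CPM in WT A to E. WT A, B and C were below every KO tumor, WT D lay within the KO range, and WT E was the highest of all. Its log2 difference of 0.23 ± 0.34 (SE; 95% interval -0.50 to 0.96, adjusted p = 0.706 in edgeR) turned to -0.39 without WT A, B and C.

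Tie1 (ENSMUSG00000033191, chr4:118471191-118490061, minus), an orphan receptor that pairs with TEK, had 22.7 to 33.6 CPM in KO tumors, with a median of 25.6. Its WT values in A to E were 21.7, 9.18, 29.4, 16.8 and 34.0 CPM. WT A, B and D were below every KO tumor, WT C lay among them and WT E just exceeded the highest. KO exceeded WT by 0.27 ± 0.28 (SE) on the log2 scale (95% interval -0.32 to 0.87, adjusted p = 0.560 in edgeR), which became -0.036 once ribosomal RNA share entered the fit. Tie1 did not follow Tek within the WT group: the ratio of Tie1 to Tek per kilobase was 8.86, 2.51, 10.6, 2.52 and 4.39 in WT A to E and 3.88 to 7.39 in KO tumors.

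Of the junction genes, Pecam1 (CD31; ENSMUSG00000020717, chr11:106654217-106750628, minus), an adhesion receptor also carried by platelets and some leukocytes, had 60.3 to 97.3 CPM in KO tumors, with a median of 66.0. In WT A to E it had 56.8, 39.2, 66.7, 36.9 and 81.9 CPM. WT A, B and D were below every KO tumor and the other WT tumors were within the KO range. The log2 difference of 0.38 ± 0.23 (SE; 95% interval -0.11 to 0.87, adjusted p = 0.314 in edgeR) stayed positive in all 20 alternative fits, between 0.22 and 0.56. Macrophage markers, which could bring Pecam1 from other cells, summed to 2624 to 4387 CPM in KO tumors and to 4793, 4679, 2366, 2447 and 2571 CPM in WT A to E; their part was not tested.

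Cdh5 (VE-cadherin; ENSMUSG00000031871, chr8:104101625-104144511, plus), the cadherin of endothelial adherens junctions, ranged from 36.5 to 58.8 CPM in KO tumors with a median of 46.0. WT A to E had 18.4, 19.8, 49.5, 25.7 and 67.9 CPM. WT A, B and D again lay below every KO tumor, and WT E was the highest. A difference of 0.34 ± 0.32 (SE) on the log2 scale (95% interval -0.34 to 1.03, adjusted p = 0.523 in edgeR) became -0.021 without WT A, B and C.

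Esam (ENSMUSG00000001946, chr9:37528078-37538319, plus), an immunoglobulin-type adhesion molecule of tight junctions and platelets, was nearly level across KO tumors at 22.3 to 29.6 CPM, with a median of 25.9. Its WT values in A to E were 23.2, 18.7, 45.3, 12.0 and 27.6 CPM, so that WT C lay above, WT B and D below and WT A and E within the KO range. The groups differed by 0.018 ± 0.27 (SE) on the log2 scale (95% interval -0.56 to 0.60, adjusted p = 0.973 in edgeR), and the sign changed with the tumor left out.

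Emcn (endomucin; ENSMUSG00000054690, chr3:137341067-137432185, plus), a sialomucin of capillaries and veins that keeps leukocytes from adhering, was the member that ran against the others. KO tumors had 11.4 to 24.8 CPM, with a median of 19.7, and WT A to E had 21.96, 33.4, 30.9, 14.9 and 19.9 CPM. WT B and C exceeded every KO tumor, KO F was the lowest of all, and WT A, D and E lay within the KO range. On the log2 scale KO over WT was -0.30 ± 0.25 (SE; 95% interval -0.83 to 0.23, adjusted p = 0.460 in edgeR), and 0.17 without WT A, B and C. Relative to Cdh5, on the CPM per kilobase scale, Emcn was 0.151 to 0.410 in KO tumors and 0.930, 1.31, 0.484, 0.451 and 0.228 in WT A to E. WT A to D therefore had more Emcn per Cdh5 than any KO tumor, and WT E lay within the KO range. Emcn lies on chromosome 3, as does the targeted gene Pkn2.

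Plvap (ENSMUSG00000034845, chr8:71497765-71511752, minus), which forms the diaphragms of fenestrated capillaries such as those of the pancreas, was the most abundant member and the steadiest in KO tumors, at 94.1 to 115 CPM with a median of 99.8. WT A to E had 57.9, 26.5, 116, 48.6 and 111 CPM. WT A, B and D lay below every KO tumor, WT E within their range and WT C just above it. The log2 difference was 0.49 ± 0.31 (SE; 95% interval -0.18 to 1.16, adjusted p = 0.340 in edgeR) and stayed positive in all 20 alternative fits, from 0.16 to 0.73.

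Vwf (von Willebrand factor; ENSMUSG00000001930, chr6:125546774-125686679, plus), the clotting protein stored in Weibel-Palade bodies, had the largest fold change of the members. It was 17.1 to 30.3 CPM in KO tumors, with a median of 22.3, and 9.55, 6.43, 15.3, 3.60 and 29.0 CPM in WT A to E. WT A to D lay below every KO tumor and WT E near the top of the KO range. KO exceeded WT by 0.85 ± 0.43 (SE) on the log2 scale, with a 95% interval from -0.08 to 1.78 (adjusted p = 0.241 in edgeR and 0.180 in DESeq2). Without WT E the difference was 1.41 (adjusted p = 0.0362 in edgeR). Vwf was then the 1 member called, where 11.1% of all tested genes were (3.63% as higher in KO). In the same fit 5 members (Kdr, Pecam1, Cdh5, Plvap and Vwf) were higher at an unadjusted p under 0.05. Of all tested genes 13% were higher at that level and 32.1% passed it in either direction. Megakaryocytes and platelets also carry Vwf. Of 7 platelet and megakaryocyte markers 3 were tested, the list summed to 19.7 to 79.6 CPM in KO tumors and to 97.9, 204, 53.5, 21.7 and 47.7 CPM in WT A to E, and Gp1bb had no counts in any tumor. The part of platelets and megakaryocytes in the Vwf levels was not tested.

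**Figure D2:**
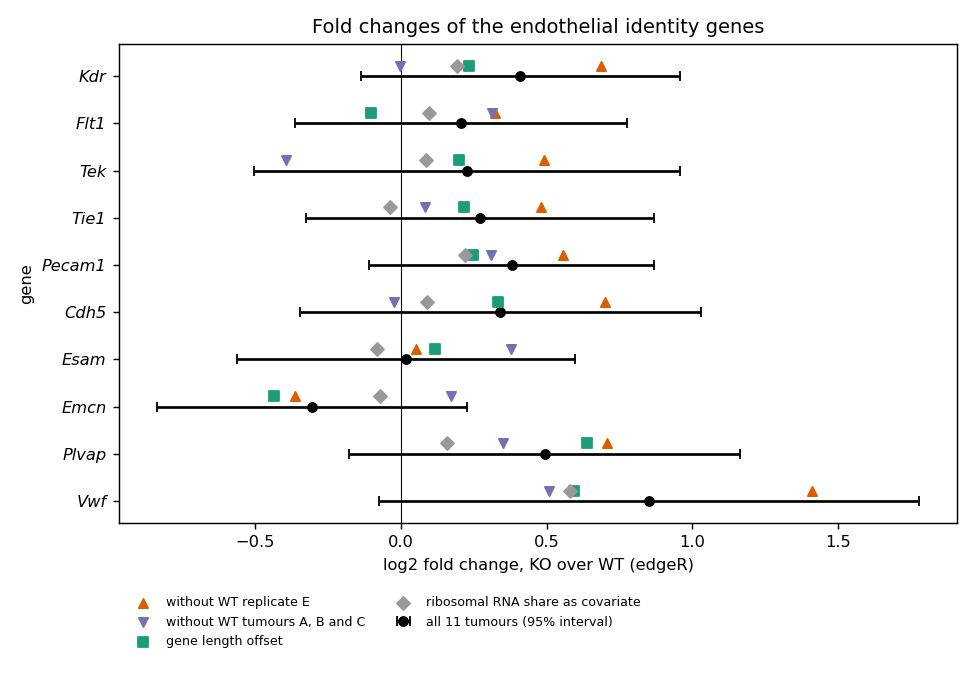
Log2 fold change (horizontal axis, KO over WT, edgeR) of each gene (vertical axis): black points and bars give the estimate and its 95% interval from all 11 tumors, and colored symbols give the estimate from 4 other fits. All 10 intervals include 0, and without WT E the estimate moved up for every gene but Emcn.

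The members' levels were spread more widely over the WT than over the KO tumors. The SD of log2(CPM + 0.5) was larger in WT than in KO tumors for 10 of 10 members, as it was for 84.9% of all tested genes. The median ratio of the WT to the KO SD was 3.31 for the members and 1.92 over all tested genes. In KO tumors the members' median SD was 0.23, close to the 0.25 of all genes, and in WT tumors it was 0.68 against 0.50. Plvap had the highest ratio, 7.99, with a 1.22-fold range between the lowest and highest KO tumor and a 4.39-fold range in WT. Vwf ranged 8.05-fold in WT and 1.77-fold in KO tumors, and Emcn had the lowest ratio, 1.17. These ratios are a description with no test.

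The WT tumors fell apart in the same way for most members. The mean over members of the z score of log2(CPM + 0.5) was -0.85, -1.19 and -1.15 in WT A, B and D, 0.54 and 0.82 in WT C and E, and -0.03 to 0.49 in KO tumors. WT A, B and D thus lay below, and WT C and E above, all 6 KO tumors. The summed CPM of the 10 genes was 251, 200, 444, 207 and 464 in WT A to E and 349 to 450, with a median of 388, in KO tumors. WT A and B were low at negative length correlations, and WT D was low at one within the KO range. WT C was high at a negative one, and WT E was high at one above the KO range. WT E, highest in Cdh5, Kdr, Tek and Tie1, also had the highest exocrine marker sum; KO E, with the second-highest sum, had a mean z score of 0.31, within the KO range. Fibroblast markers summed to 1549, 2671, 3077, 1912 and 6094 CPM in WT A to E and to 2665 to 5804 CPM in KO tumors, so that WT A and D were the lowest of the 11 tumors and WT E the highest. Carcinoma epithelial markers summed to 9254, 3086, 7040, 5791 and 5523 CPM in WT A to E and to 2657 to 5442 CPM in KO tumors. All 6 of them had lower means in KO, with a median log2 fold change of -0.62. At an unadjusted p under 0.05, 3 were lower, where 15.5% of all tested genes were. WT A and D, low in the members, were above every KO tumor in this sum, as were WT C and E, which were high in the members. The parts of library composition and of tissue composition in the members' levels were not tested.

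**Figure D3:**
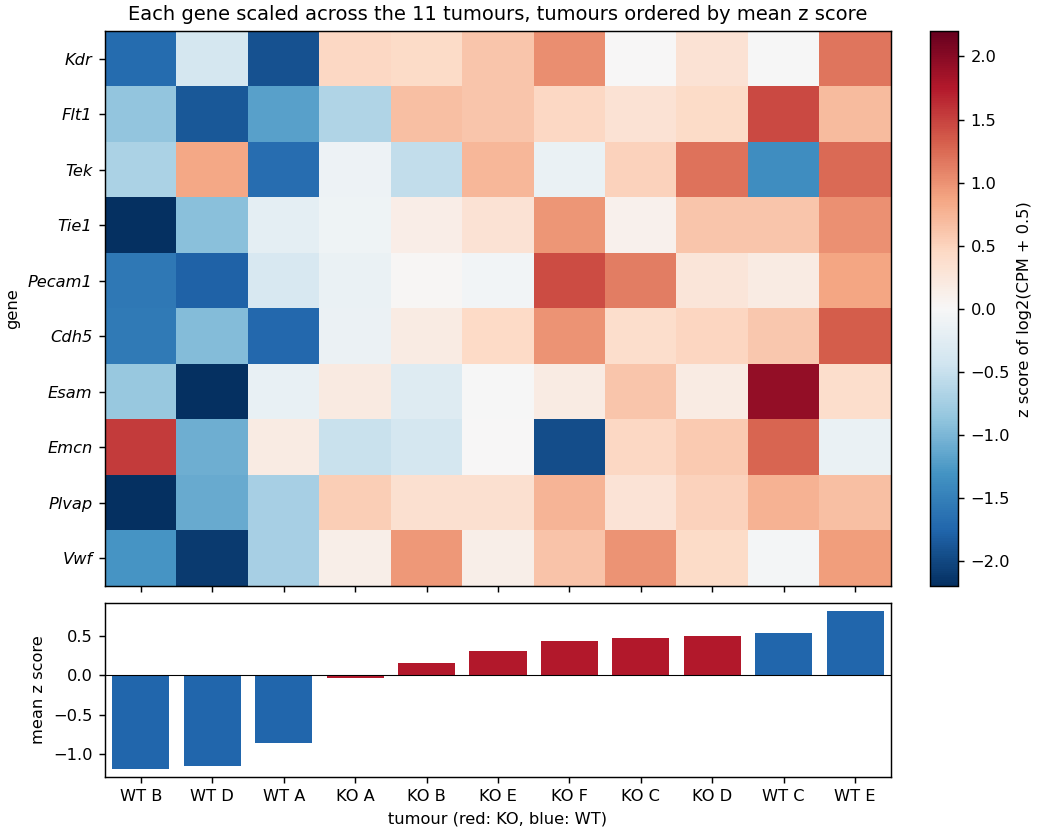
Z score of log2(CPM + 0.5) for each gene (rows) in each tumor (columns, ordered by mean z score), with the mean z score per tumor as bars below (red KO, blue WT). WT B, D and A stand at the low end and WT C and E at the high end, with the 6 KO tumors from -0.03 to 0.49 between them, and the Emcn and Tek rows depart from the common pattern.

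Cdh5 followed the other 9 members most closely, with a Pearson correlation of 0.93 with their mean z score over the 11 tumors. Plvap had 0.88, Flt1 and Vwf 0.86, Pecam1 0.83, Tie1 0.82, Kdr 0.76 and Esam 0.68, whereas Tek had 0.21 and Emcn -0.21. These values describe points that share libraries, and they rest in part on the spread of the WT tumors. Within the 6 KO tumors the coefficients were 0.68 for Cdh5, 0.52 for Tie1, 0.44 for Flt1, 0.42 for Pecam1 and 0.36 for Tek. They were 0.32 for Esam, 0.17 for Vwf, -0.03 for Plvap, -0.23 for Kdr and -0.26 for Emcn. Every member but Tek thus had a lower coefficient there than over the 11 tumors. Among 14888 other genes with a mean of at least 1 CPM, the 8 whose levels were most like the members' mean were Mmrn2 (0.96), Notch4 (0.96), Slc39a6 (0.96), Mcam (0.94), Cercam (0.93), Kif26a (0.93), Zfp469 (0.93) and Adgrl4 (0.93). Mmrn2, an endothelial matrix protein, Notch4, the endothelial Notch receptor, Mcam and Adgrl4 belong to the vascular lists below, and 9 of the 100 most alike genes did, where 85 of the 14888 compared genes do.

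Partner genes of the members were taken from 10 lists holding 87 distinct tested genes. At an unadjusted p under 0.05, 13 of these (14.9%) were higher in KO tumors and 5 (5.75%) were lower, where 8.57% and 15.5% of all tested genes were. None passed the adjusted threshold in edgeR, the smallest adjusted p being 0.0942. DESeq2 called 4 of 85 (Angpt1, Calcrl and Selp as higher and Egfl7 as lower). It called 5.06% of its 29531 genes (2.01% as higher and 3.05% as lower), a set not limited by edgeR's expression filter. Leaving out WT E, edgeR called 6 higher (Angpt1, Nrp2, Selp, Erg, Calcrl and Thbd) and 3 lower (Gpihbp1, Vegfb and Egfl7), where 3.63% and 7.46% of all tested genes were called. Leaving out WT D, it called 1 higher and 3 lower, against 1.21% and 3.87%. The median log2 fold change of the 87 genes was 0.17. The 5 lower genes had a median exon length of 2.55 kb and the 13 higher ones 4.41 kb. With a gene length offset 15 were higher and 2 lower, against 9.22% and 13.8% of all tested genes. Without WT A, B and C the counts were 5 and 1 (8.21% and 9.01% of all genes), and without WT E they were 29 and 5 (13% and 19.1% of all genes), so the number rests on which WT tumors are counted.

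The ligands of KDR and FLT1 gave no common direction. Vegfa, the main VEGF, was 120 ± 35.5 CPM in KO (SD, n = 6) and 113 ± 38.7 CPM in WT tumors (SD, n = 5), with a log2 fold change of 0.09 (edgeR, adjusted p = 0.860). Vegfb and Pgf, both ligands of FLT1, had log2 fold changes of -0.69 and -0.82 (adjusted p = 0.131 and 0.225 in edgeR), and the VEGF co-receptor Nrp2 had 0.71 (adjusted p = 0.138). Without WT A, B and C the values were -0.22 for Vegfb, 0.30 for Pgf and 0.38 for Nrp2. WT B had the highest Vegfb level, 82.1 CPM, against 24.0 to 29.5 CPM in KO tumors. Of 8 tested genes in the VEGF list, 1 (Nrp2) was higher and 1 (Vegfb) lower at an unadjusted p under 0.05. The shares of all tested genes were 8.57% and 15.5%.

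For TEK, the agonist Angpt1, made by mural and other stromal cells, was 12.6 ± 3.93 CPM in KO (SD, n = 6) and 5.65 ± 2.50 CPM in WT tumors (SD, n = 5). Its KO values ran from 7.59 to 18.3 CPM, and WT A to E had 3.04, 3.004, 6.44, 8.34 and 7.45 CPM. WT A, B, C and E were below every KO tumor and WT D overlapped only with KO B. The difference was 1.14 ± 0.33 (SE) on the log2 scale (adjusted p = 0.0976 in edgeR), and 0.67 without WT A, B and C. Angpt2, the antagonist released by activated endothelium, had a log2 fold change of -0.08 (adjusted p = 0.905 in edgeR), and Ptprb, the phosphatase that dampens TEK, 0.75 (adjusted p = 0.245).

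Several genes of the Notch, tip cell and transcription factor lists had higher levels in KO tumors before adjustment. Bulk RNA does not show which cells these transcripts came from, and this was not tested. Of 6 macrophage markers, 5 were higher in KO, 2 of them at an unadjusted p under 0.05, where 8.57% of all tested genes were. Notch1 had a log2 fold change of 0.73 (edgeR, adjusted p = 0.114), and the tip cell genes Cxcr4 and Unc5b had 0.52 and 0.58. Of 7 tip cell genes, 4 were higher, 2 of them at an unadjusted p under 0.05. The other 3, Esm1 (-0.42), Pgf (-0.82) and Angpt2 (-0.08), were lower. Of 7 Notch genes, 5 were higher, 1 of them at that level, and Hey1 (-0.34) and Hey2 (-0.05) were lower. Of 13 transcription factors, 8 were higher and 5 lower, with a median log2 fold change of 0.12. At an unadjusted p under 0.05, 3 were higher and 0 lower, where 8.57% and 15.5% of all tested genes were. Erg had 1.06, Fli1 0.49 and Lyl1 0.60 on the log2 scale. The 5 lower factors were Sox7 (-0.33), Klf2 (-0.25), Nr2f2 (-0.21), Sox18 (-0.14) and Sox17 (-0.04). Erg, which maintains endothelial identity, was 7.80 to 12.9 CPM in KO tumors and 3.52, 1.75, 2.51, 5.13 and 9.99 CPM in WT A to E. WT E alone among the WT tumors reached the KO range of Erg, as it did for Kdr and Vwf. Without WT A, B and C the log2 fold change of Erg was 0.35 and that of Notch1 was 0.38. In that fit Unc5b had 0.17, Cxcr4 0.61, Fli1 0.41 and Lyl1 0.59.

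The genes for vessel tone, transport and permeability went both ways. Calcrl, the receptor of adrenomedullin, was 13.9 to 18.7 CPM in KO tumors and 9.24, 8.84, 11.01, 10.5 and 12.7 CPM in WT A to E. It was the only gene of the 87 whose groups did not overlap, where 1.59% of all tested genes lay higher without overlap, and differed by 0.60 ± 0.17 (SE) on the log2 scale (adjusted p = 0.0942 in edgeR). Its partner Ramp2, named after its values were seen, had -0.64 (adjusted p = 0.205 in edgeR). Aqp1, a water channel, had 1.23, and Egfl7, a matrix protein of growing vessels, and Gpihbp1, which anchors lipoprotein lipase in capillaries, had -1.03 and -1.15 (adjusted p = 0.131, 0.0989 and 0.135 in edgeR). Without WT A, B and C the sign turned for Gpihbp1 (0.41) and Ramp2 (0.13), and Egfl7 had -0.11. Egfl7 was 51.8, 65.2 and 40.1 CPM in WT A, B and C, 14.8 and 27.8 CPM in WT D and E, and 16.7 to 24.8 CPM in KO tumors, so that its highest levels were in WT A, B and C. With the gene length offset its log2 fold change was -0.98. Cldn5, the tight junction claudin, had -1.03 (adjusted p = 0.196 in edgeR) and was likewise highest in WT A and C, with 40.6 and 32.1 CPM, and its log2 fold change was 0.39 without WT A, B and C.

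Of 5 adhesion molecules that capture leukocytes on endothelium, 3 were higher at an unadjusted p under 0.05, where 8.57% of all tested genes were. Selp had 1.55, Vcam1 0.90 and Icam1 0.86 on the log2 scale (edgeR, adjusted p = 0.142, 0.184 and 0.193). Without WT A, B and C these were 0.93, 0.40 and 0.61. Selp is also a platelet gene, and Vcam1 and Icam1 are made by fibroblasts and leukocytes as well. None of the 6 tested lymphatic genes and none of the 10 mural cell genes had an unadjusted p under 0.05 in edgeR or, where it gave a p, in DESeq2. The median log2 fold changes of these lists were -0.28 and 0.19, with Abcc9 at 0.70 and Myh11 at 0.73 as the mural genes with the smallest p. Without WT E, the mural genes Pdgfrb, Rgs5, Cspg4, Abcc9, Notch3 and Myh11 were higher at an unadjusted p under 0.05 in edgeR. In that fit 13% of all tested genes were higher at that level, and the other mural genes and the lymphatic genes did not pass it.

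**Figure D4:**
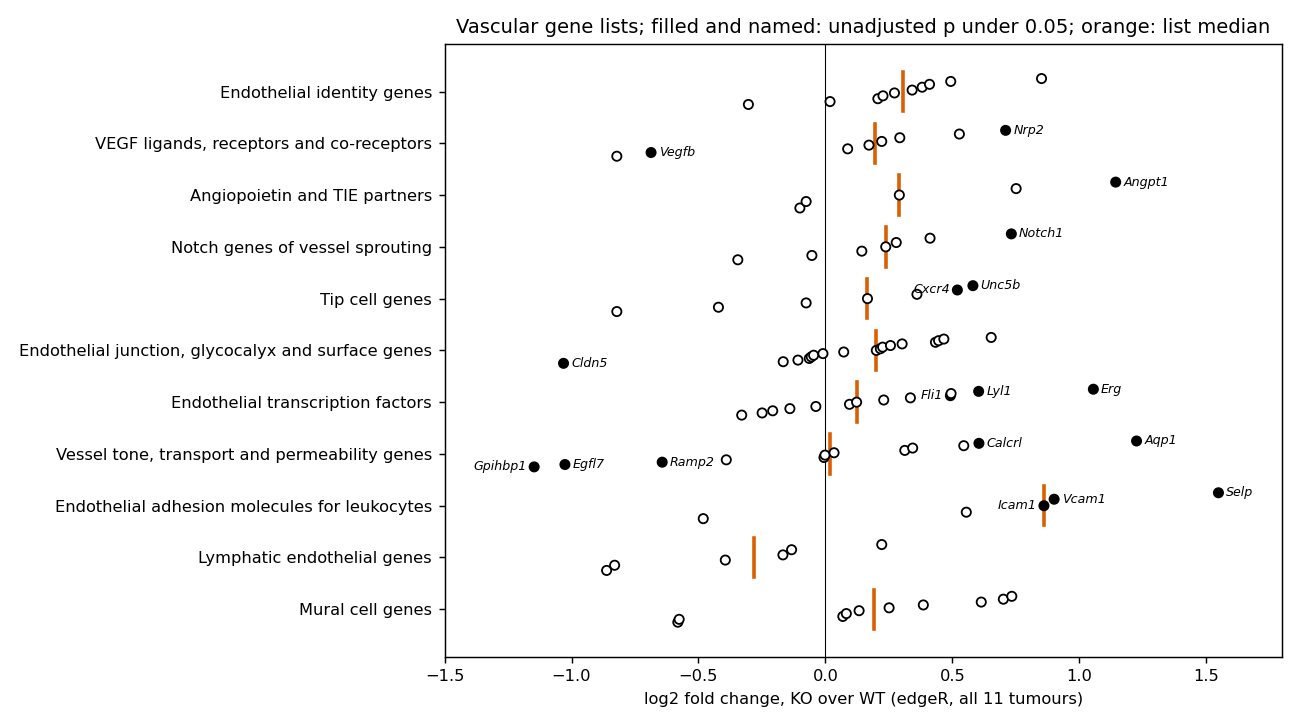
Log2 fold change (horizontal axis, KO over WT, edgeR) of the 10 endothelial identity genes and of each gene in the 10 vascular lists (vertical axis), with filled and named points at an unadjusted p under 0.05 and an orange line at each list's median. The medians lie from -0.28 for lymphatic genes to 0.86 for leukocyte adhesion molecules, and the identity genes, at 0.31, hold no filled point.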

How the data were processed

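Bulk RNA from 11 tumors was sequenced. Per the labels and the methods of the study, strand-specific paired-end reads were trimmed (Trimmomatic), aligned to mm10 with HISAT2 2.1.0, and uniquely aligned exonic reads were counted per gene with HTSeq 0.11.2. The authors deposited these raw counts and a normalised signal, counts divided by 1 size factor per tumor, which served only as an alternative scale. Groups and letters came from the sample titles. Of 54232 Ensembl identifiers, 54165 matched GENCODE M21 (GRCm38).

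KO was compared with WT over the raw counts with edgeR 4.0.16 (R 4.3.3; quasi-likelihood F-test, TMM, default expression filter, no covariate, Benjamini-Hochberg adjustment over 16536 genes, threshold 0.05). SEs were derived from F and the size of each estimate. CPM used TMM-scaled totals of the tested genes. Levels between genes were compared per kilobase of merged exons. Correlations and z scores used log2(CPM + 0.5). The fit was tested on simulated data that had 1 common dispersion for all genes in both groups. That setting lacks the wider spread of the WT tumors, so it cannot show how the fit performs there. No libraries agreed within sampling noise (lowest chi-square per degree of freedom 33.9). The visible floor of 3 counts covers counting error only.

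The members and lists were chosen with earlier results of these data known. Named genes were all members, Pkn2, up to 4 genes per vascular list with the smallest p, Vegfa, Vegfc, Pgf, Angpt1 and Angpt2, and the 8 genes most like the members' mean. No set test was run. Lists for other cell types (platelet, macrophage, carcinoma, fibroblast, acinar, islet) gave values only. Alternatives were DESeq2 1.42.0, upper-quartile scaling, other filters, a replicate block, a ribosomal RNA covariate, a gene length offset and fits without named tumors. Promoter windows came from RefSeq.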

Additional observations from a re-analysis of the deposited data

Results flagged for a closer look

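Flt1 was lower in KO A than in the other KO tumors, at 32.5 CPM against 44.9 to 50.4 CPM. The gap to the nearest KO tumor was 0.735 of the range of the group. It was the only outlying tumor among 22 groups of values examined (each member and the members' mean z score, in KO and in WT tumors), where chance alone would give about 1.1.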

How the results depend on the processing

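0 members were called in 19 of 20 alternative fits, and the median log2 fold change of the members was positive in all 20, from 0.09 to 0.52. Leaving out 1 tumor at a time gave 0 to 1 called members and 0 to 5 at an unadjusted p under 0.05. The 5 (Kdr, Pecam1, Cdh5, Plvap and Vwf, all higher in KO) and the called Vwf (log2 fold change 1.41) were both without WT E. Without WT C it was 1 (Plvap, higher), where 8.59% of all tested genes were higher and 23.8% passed in either direction. The unadjusted count was 1 (Vwf, higher) under DESeq2, with no filter on low counts and with a replicate block. In these fits 6.27%, 6.82% and 7.9% of all tested genes were higher, and 16.5%, 16.5% and 15.9% passed in either direction. Without KO E, KO F and WT E the count was 2 (Kdr and Vwf, both higher), against 8.98% higher and 21.9% in either direction. Signs turned for Tie1 (-0.036) and Esam (-0.080) with the ribosomal RNA covariate, for Flt1 (-0.10) with the length offset, and without WT A, B and C for Kdr (-0.0016), Tek (-0.39), Cdh5 (-0.021) and Emcn (0.17). Esam ranged from -0.16 to 0.33 when 1 tumor was left out. The cause of these changes was not tested. Letters did not pair the tumors: deviations of same-letter tumors correlated at -0.13 to 0.11, and 1 of 5 KO tumors correlated best with its own letter. With the replicate block, Vwf had a log2 fold change of 1.17 (edgeR, unadjusted p = 0.0342) and 0 members were called. Over all genes edgeR called 3 and DESeq2 1495. Of the 87 vascular genes, 7 were higher and 2 lower at an unadjusted p under 0.05 with the ribosomal RNA covariate (5.14% and 6.63% of all tested genes), and 24 and 7 without KO E, KO F and WT E (8.98% and 12.9%). With 5 WT tumors that spread up to 8.05-fold, the 95% intervals allow log2 changes of up to 1.78 for Vwf.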

Other observations

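Vegfc, the ligand of lymphatic growth, was 19.0 ± 6.18 CPM (SD, n = 6) in KO and 16.9 ± 1.02 CPM (SD, n = 5) in WT tumors. KO F had the highest level of its main receptor Flt4, 27.5 CPM against 7.28 to 11.1 CPM in the other KO tumors, and also the highest levels of the lymphatic genes Mmrn1 (12.6 CPM), Prox1 (6.81 CPM) and Reln (4.71 CPM) among all 11 tumors, together with the lowest Emcn and the highest Pecam1. Mmrn1 was at most 2.14 CPM in the other KO tumors and 2.09 to 7.36 CPM in WT tumors. The islet marker sum of KO F was 79.4 CPM, against 2.28 or less in the other KO tumors, 323 CPM in WT E, 62.3 CPM in WT A and 4.57 CPM or less in the other WT tumors. These values are for 1 tumor and were not tested.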
